A study of Rattus norvegicus with 6 samples.

Results

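The nuclear-encoded subunits of the mitochondrial respiratory chain and of the ATP synthase were followed in rat liver after treatment with nitrilotriacetic acid (NTA), a chelator of metal ions. The genes were those whose RefSeq accession on the array leads to a rat symbol of the Nduf, Sdh, Uqcr, Cox4 to Cox8 or Atp5 families, with the Nduf assembly factors left out. This gave 76 genes with 131 probes, out of 15284 named genes on the array: 32 of complex I, 4 of complex II, 8 of complex III, 17 of complex IV and 15 of the ATP synthase. Of 109 protein-coding rat symbols that fit these names, 34 had no matched probe and were not analysed here. Liver RNA came from male Sprague-Dawley rats, which had been bought at 5 weeks of age, and was read as Cy3-labelled cRNA on Agilent arrays with a single colour. The NTA group was 3 rats given nitrilotriacetic acid trisodium monohydrate at 1000 mg/kg/day, and the vehicle group was 3 rats. The labels name the vehicle as purified water in one field and as corn oil in another, and give the sampling time both as 28 days and as 9 weeks; neither point was settled here. With 3 rats named for each treatment, 1 array stands for 1 rat.

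The respiratory chain passes electrons from NADH through complex I, and from succinate through complex II, to coenzyme Q, complex III, cytochrome c and complex IV, where oxygen is reduced. Complexes I, III and IV pump protons across the inner mitochondrial membrane, and the ATP synthase uses their return to make ATP. Hepatocytes are rich in mitochondria and rely on this machinery for glucose and urea synthesis. All the genes followed here lie in the nuclear genome, and their proteins are imported into the organelle. The exception is Cox6c-ps1, counted with complex IV, which RefSeq classes as a pseudogene. The subunits that mitochondrial DNA encodes were not analysed here.

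Values are log2 processed signal relative to the 75th percentile of the same array, read from the brightest probe of a gene. Of the 76 genes, 75 were well above background on each of the 3 arrays of a group, which was the filter, and 0 met it through 1 group alone. Cox8c, a testis form of a complex IV subunit, was not well above background on any array. All 10 hepatocyte markers were well above background on all 6 arrays, as were 3 of 9 muscle and brown fat markers (Ckm, Actn2 and Cidea), while Myh6, Myh7, Myl2 and Ucp1 of that list were not on any. The arrays were similar in depth, with 62.4% to 64.5% of probes well above background. Vehicle replicate 3 was scanned on another day and alone on its slide; the NTA arrays were together on a slide of their own, and the other vehicle arrays on another.

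Promoter sequence was not used to choose these genes. RefSeq gave a window from 250 bases before to 50 bases after the start site (assembly GRCr8) for 66 of the 76. The core recognised by GABP and other ETS factors, CCGGAAG, stood on either strand in 20 of the 66 windows (30.3%), against 11.2% of 19005 protein-coding genes. The YY1 core AAGATGGC stood in 12 (18.2%), against 3.92%, and GCGCATGC, from the site of the nuclear respiratory factor NRF1, in 9 (13.6%), against 3.23%. The oestrogen-related receptor site TCAAGGTCA was found in 1 window (1.52%), against 0.353%. The Sp1 box GGGCGG was about as frequent in both, at 42.4% and 43.1%. Of the 66 windows, 30 held at least 1 of the first 4 motifs. Both strands were searched, none of these 5 strings contains another, and a match describes the sequence only.

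Windows of 3 subunit genes with several matches, and of the ATP synthase inhibitor Atp5if1, which held none of the first 4 motifs, are shown for the genes whose values follow. Each is written 5′ to 3′ along the gene in GRCr8, with the NRF1, GABP, YY1 and oestrogen-related receptor motifs in capitals. That of Atp5me lies at chr14:1464610-1464909 (plus strand), that of Cox8a at chr1:213833574-213833873 (minus strand), that of Sdhd at chr8:59850592-59850891 (minus strand) and that of Atp5if1 at chr5:150026628-150026927 (minus strand).
Atp5me: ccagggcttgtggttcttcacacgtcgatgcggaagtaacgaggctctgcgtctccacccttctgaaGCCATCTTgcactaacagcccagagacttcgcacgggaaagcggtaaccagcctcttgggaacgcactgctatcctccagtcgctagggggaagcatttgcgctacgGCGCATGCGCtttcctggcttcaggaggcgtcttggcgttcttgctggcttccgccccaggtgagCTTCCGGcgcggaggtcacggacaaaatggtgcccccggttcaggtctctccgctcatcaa
Cox8a: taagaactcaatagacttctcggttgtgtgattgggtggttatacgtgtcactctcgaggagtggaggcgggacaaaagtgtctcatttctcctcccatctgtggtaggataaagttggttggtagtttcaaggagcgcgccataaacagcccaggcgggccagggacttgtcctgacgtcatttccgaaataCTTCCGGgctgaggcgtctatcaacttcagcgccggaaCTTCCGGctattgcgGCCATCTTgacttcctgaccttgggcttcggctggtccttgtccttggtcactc
Sdhd: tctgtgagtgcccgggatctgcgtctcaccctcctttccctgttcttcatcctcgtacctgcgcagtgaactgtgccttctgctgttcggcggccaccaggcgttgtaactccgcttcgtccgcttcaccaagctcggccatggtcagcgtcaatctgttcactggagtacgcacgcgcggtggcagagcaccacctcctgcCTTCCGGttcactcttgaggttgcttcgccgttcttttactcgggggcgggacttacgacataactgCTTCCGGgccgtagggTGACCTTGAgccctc
Atp5if1: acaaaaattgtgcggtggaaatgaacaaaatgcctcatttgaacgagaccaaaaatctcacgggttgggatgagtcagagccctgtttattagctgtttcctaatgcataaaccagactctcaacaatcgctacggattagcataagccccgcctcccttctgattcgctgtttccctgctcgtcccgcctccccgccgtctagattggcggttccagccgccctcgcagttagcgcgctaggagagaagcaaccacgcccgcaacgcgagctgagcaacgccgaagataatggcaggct
In the Atp5me window the NRF1 motif and its reverse complement together cover bases 175 to 184, the YY1 core bases 68 to 75 and the ETS core bases 240 to 246. The windows of Cox5a, Ndufb3 and Atp5mc1, which were lower with NTA, also held none of the motifs in capitals. Whether motif matches go with the differences was not tested.

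The subunit genes as a set lay slightly lower with NTA, by about the same amount in all 5 complexes. The median log2 difference (NTA minus vehicle) over the 75 measured genes was −0.12, an NTA level 0.923 times that with vehicle, and 71 of the 75 differences were below 0. Complex I had a median of −0.12 with 29 of 32 below 0, complex II −0.11 with 4 of 4, complex III −0.11 with 8 of 8, complex IV −0.12 with 16 of 16 and the ATP synthase −0.13 with 14 of 15. Over all 30353 features tested the median was −0.027 and 56.1% of differences were below 0. Among the brightest 3036 features, which held 59 of the 75 subunit genes, the median was −0.057 and 70.6% were below 0.

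No subunit gene passed the test. In limma, 0 of 75 had a Benjamini-Hochberg adjusted p under 0.05 over all features, where 9 features (0.0297%) did. The subunit genes' adjusted p lay between 0.48 and 0.99. At an unadjusted p under 0.05 there were 2 lower (against 3.91% of all features) and 1 higher (against 3.66%). The groups did not overlap in 21 genes that were lower with NTA, 28.0% of the 75, against 8.03% of all features and 9.72% of these brightest features. In the other direction they did not overlap in 1 gene, against 5.57% of all features. The standard error of a single gene's difference had a median of 0.11, close to the size of the set's median. Differences of this size could thus not be resolved gene by gene with 3 rats per group. The 75 genes share the same 6 arrays and are not replicates, and the set's median was not tested.

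**Figure D1:**
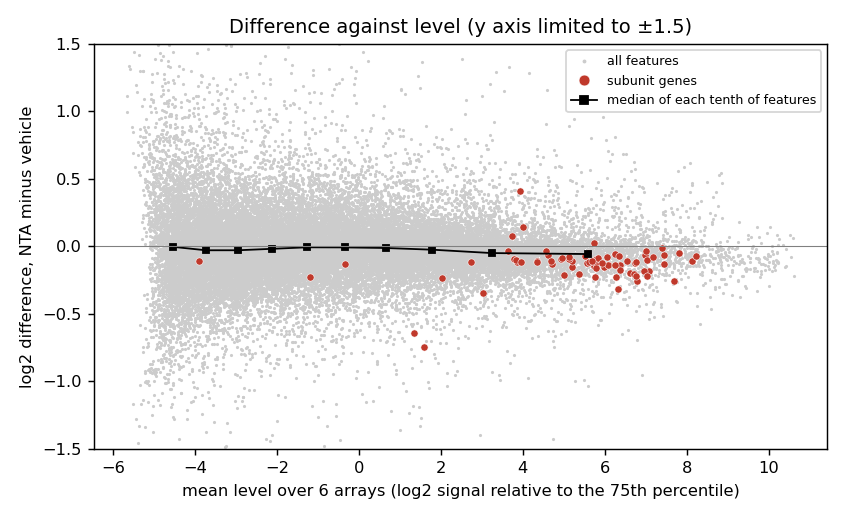
Log2 difference (NTA minus vehicle) of each feature against its mean level over the 6 arrays, in grey, with the 75 subunit genes in red and the median of 10 equal classes of features by level in black; the y axis stops at −1.5 and 1.5. Most subunit genes sit at the bright end, just below 0 and below the black line, which ends at −0.057; Atp5if1 stands above the others at 0.41.

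The shift was uneven between rats. Taking each gene relative to its own mean over the 6 arrays, the median over the 75 genes was 0.016, −0.088 and −0.11 on NTA arrays 1, 2 and 3, against −0.0078, 0.058 and 0.14 on vehicle arrays 1, 2 and 3. NTA replicate 1 thus lay above vehicle replicate 1, and the groups overlapped. Gene by gene, 26 of 75 were lower in NTA replicate 1 than in vehicle replicate 1, and 74 of 75 were lower in NTA replicate 3 than in vehicle replicate 3. Vehicle replicate 3 held the highest value of 51 of the 75 genes and NTA replicate 3 the lowest value of 37. Without vehicle replicate 3, which also leaves only the arrays of the first scan day, the median was −0.077 with 64 of 75 below 0. It was −0.16 without vehicle replicate 1, −0.16 without NTA replicate 1, and −0.072 with quantile normalization. The count at an unadjusted p under 0.05 was 9 without vehicle replicate 1, 12.0% of the subunit genes against 8.45% of all features in the same fit.

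**Figure D2:**
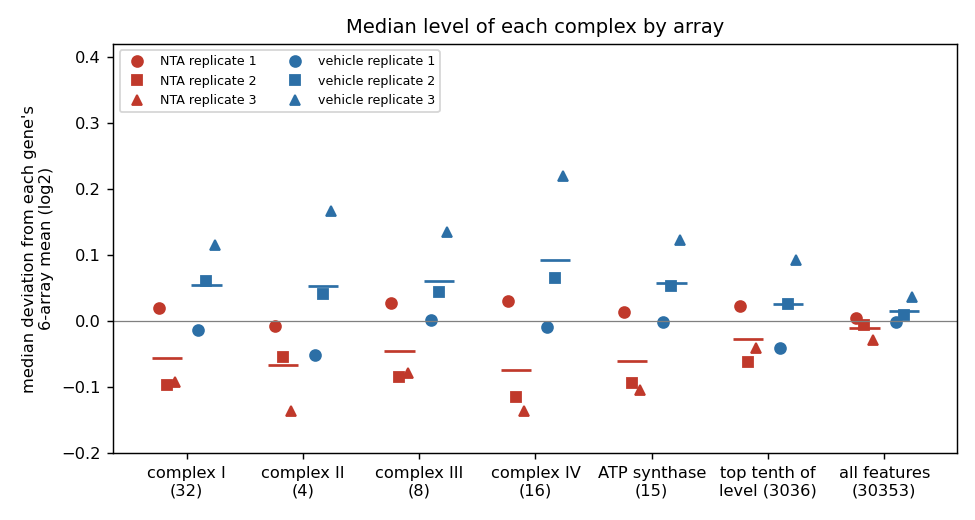
Median over the genes of each complex (number in brackets) of the log2 level relative to each gene's own mean over the 6 arrays, for NTA arrays (red) and vehicle arrays (blue); the brightest 3036 features and all 30353 features stand at the right, and horizontal bars are group means. In each of the 5 complexes NTA replicate 1 lies above vehicle replicate 1, vehicle replicate 3 is highest, and NTA replicates 2 and 3 are lowest.

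Markers of liver cell types were also compared, with no list tested as a set. Of the 10 hepatocyte markers 9 were lower with NTA, with a median of −0.15 (−0.059 with quantile normalization). Most of them belong to the brightest 3036 features, of which 70.6% were below 0 with a median of −0.057. Relative to each gene's mean, the hepatocyte marker median was −0.048, −0.10 and −0.14 on the NTA arrays, against 0.027, 0.15 and 0.032 on the vehicle arrays. All 6 measured sinusoidal endothelium markers were higher with NTA (median 0.58), as were 7 of 7 Kupffer cell and macrophage markers (median 0.35), 5 of 5 erythroid markers (0.54) and 3 of 3 B cell markers (0.75). Over all 30353 features, 13317 were higher with NTA. The erythroid median is the value of Epb42, which was well above background on 3 NTA arrays and 1 vehicle array. It thus passed the filter only through the group where it was higher. The median was 0.13 over 3 biliary markers and −0.27 over 5 measured muscle and brown fat markers, and 0 of all these markers passed limma over all features. Of the muscle list, Acta1 (−0.90) passed the filter only through the vehicle group, where it was higher. Tnnt3 of that list was read at 0.34 from a dimmer probe, while its brightest probe, which did not pass the filter, gave −0.39. The endothelium markers had array medians from 0.12 to 0.35 with NTA and from −0.36 to −0.081 with vehicle, while those of Kupffer cells overlapped, and without vehicle replicate 3 the Kupffer cell median was 0.049. The part of these markers in the subunit values was not tested. In bulk liver RNA, fewer hepatocytes and less of a transcript per hepatocyte cannot be told apart.

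Complex I, the NADH dehydrogenase and the largest complex of the chain, has 7 nuclear-encoded core subunits that carry its flavin and iron-sulfur clusters or line the quinone site. Their median difference was −0.12, with 5 of 7 below 0. It was −0.12 with 24 of 25 below 0 for the genes counted as accessory subunits, which surround the core. Ndufs1, which holds iron-sulfur clusters of the NADH-oxidising arm, was at 3.89, 3.70 and 3.70 on the NTA arrays, against 3.76, 3.56 and 3.74 on the vehicle arrays (log2 difference 0.080, SE 0.11). Ndufv1, the subunit that binds NADH and flavin, was at 5.87, 5.75 and 5.66 with NTA, against 5.71, 5.68 and 5.79 with vehicle (0.028, SE 0.11). Both ranges overlapped, and these were the core subunits with a difference above 0, while their other probes gave −0.0044 for Ndufs1 and −0.019 for Ndufv1.

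Among the accessory subunits of complex I the smallest p belonged to Ndufb3, Ndufa1 and Ndufa5. Ndufb3, a small subunit of the membrane arm, was at 6.69, 6.60 and 6.70 with NTA, against 6.78, 6.93 and 7.05 with vehicle (−0.25, SE 0.11; limma, Benjamini-Hochberg adjusted p = 0.68). Ndufa1, an X-linked subunit needed for assembly, was at 6.19, 6.15 and 6.14 with NTA, against 6.20, 6.47 and 6.48 with vehicle (−0.22, SE 0.12). Its second probe gave −0.21. Ndufa5 was at 6.63, 6.44 and 6.49 with NTA, against 6.65, 6.76 and 6.73 with vehicle (−0.19, SE 0.10). In these 3 genes, picked for their small p, every NTA rat lay below every vehicle rat. That held for 8 of the 32 complex I genes (25%), against 8.03% of all features. Ndufa6, the complex I gene with the highest mean level, had a difference of −0.18 (SE 0.12) with overlapping groups. Ndufa4, named for complex I but since found with complex IV, was counted here among the complex I accessory subunits and was at −0.12 (SE 0.12). The rat genome has 2 Ndufa10 genes on the array, and their differences had opposite signs, Ndufa10 at 0.14 (SE 0.16) and Ndufa10l1 at −0.12 (SE 0.11), with neither difference past the test.

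Complex II, succinate dehydrogenase, also belongs to the tricarboxylic acid cycle. Sdha, its flavin subunit, was at 6.33, 6.31 and 6.21 on the NTA arrays, against 6.30, 6.31 and 6.77 on the vehicle arrays. Vehicle replicate 3 stood apart, and the other vehicle rats lay within the NTA range. The difference was −0.17 (SE 0.15), and −0.021 without that array. The iron-sulfur subunit Sdhb was at −0.096 (SE 0.10), and the membrane anchors Sdhc and Sdhd, which hold the heme, were at −0.11 (SE 0.11) and −0.11 (SE 0.11). Without vehicle replicate 3 the median of the complex was −0.053, and it was −0.16 without vehicle replicate 1.

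In complex III, the cytochrome bc1 complex, the smallest p belonged to Uqcrb, Uqcrq and Uqcrh. Uqcrb, a subunit that binds near the quinone site, was at 6.67, 6.63 and 6.57 with NTA, against 6.73, 6.82 and 6.92 with vehicle (−0.20, SE 0.10). The groups did not overlap, and all 4 of its probes lay below 0. Uqcrq, a small membrane subunit, had the largest difference of the set in size and the largest error, at 0.65, 1.17 and 1.82 with NTA, against 1.03, 2.73 and 2.10 with vehicle (−0.74, SE 0.48). Leaving out vehicle replicate 1 gave −1.21, leaving out vehicle replicate 2 gave −0.35, and its other probe was not well above background on any array. The acidic hinge protein Uqcrh, the Rieske iron-sulfur protein Uqcrfs1 and the core protein Uqcrc1 were at −0.14 (SE 0.10), −0.10 (SE 0.10) and −0.11 (SE 0.13). Uqcr10, the complex III gene with the highest mean level, was at −0.049 (SE 0.11). The 7 subunits of complexes I to III that hold iron-sulfur clusters were also grouped, a choice made after values were seen. Their median was −0.10, with 5 of 7 below 0.

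Complex IV, cytochrome c oxidase, held the gene with the smallest p of the set, Cox6c-ps1, which RefSeq classes as a transcribed pseudogene of Cox6c. It was at 1.24, 1.02 and 0.79 on the NTA arrays, against 1.60, 1.58 and 1.78 on the vehicle arrays. Every NTA rat lay below every vehicle rat. The NTA level was 0.642 times that with vehicle (−0.64, SE 0.15; limma, Benjamini-Hochberg adjusted p = 0.48). Cox6c itself was at −0.18 (SE 0.13). Without the pseudogene, the other 15 genes of the complex had a median of −0.12 and 15 of 15 lay below 0.

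Cox5a, a subunit that faces the matrix, was at 6.28, 6.09 and 6.17 with NTA, against 6.39, 6.46 and 6.63 with vehicle. The groups did not overlap, the NTA level was 0.805 times that with vehicle (−0.31, SE 0.12; limma, Benjamini-Hochberg adjusted p = 0.62), and the other probe read −0.31. Cox7c, a small membrane subunit, was at 2.79, 2.85 and 2.92 with NTA, against 3.00, 3.12 and 3.47 with vehicle (−0.35, SE 0.15). The difference was −0.21 without vehicle replicate 3, its highest array. Cox4i1, a regulatory subunit found in all tissues, was at 7.56, 7.39 and 7.31 with NTA, against 7.37, 7.39 and 7.70 with vehicle. The groups overlapped (−0.062, SE 0.14, with a 95% interval from −0.39 to 0.27), and without vehicle replicate 3 the difference was 0.045. Cox5b, the zinc-binding subunit, was at −0.035 (SE 0.11; 0.013 with quantile normalization), and Cox6a1, the complex IV gene with the highest mean level, at −0.11 (SE 0.10).

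Several complex IV subunits exist as a form found in most tissues, liver included, and one typical of heart and skeletal muscle. The liver forms Cox7a2 and Cox8a were at −0.16 (SE 0.10) and −0.10 (SE 0.12), and Cox7a2l, which joins complex III to complex IV, at −0.079 (SE 0.10). Of the forms known from other tissues, Cox6a2 from muscle was well above background on all 6 arrays, at −1.06, −1.35 and −1.48 with NTA, against −1.15, −1.10 and −0.97 with vehicle (−0.23, SE 0.14). Cox4i2, known from lung, was at 1.99, 1.80 and 1.96 with NTA, against 2.03, 2.06 and 2.37 with vehicle (−0.24, SE 0.13). In Cox4i2 the groups did not overlap, and in Cox6a2 they did. Cox8b and Cox6b2, also well above background on all 6 arrays, were at −0.11 (SE 0.24) and −0.12 (SE 0.115), with overlapping groups. Cox8b was dim, with a mean level of −3.89. The Cox6b2 probe used had a mean level of 3.96, while its other probe, kept through the NTA group alone, was at −4.31. The dimmer Cox6a2 probes were at −3.89 and −4.42. The dimmest signals well above background lay between −5.45 and −5.17 on these arrays. Cox7a1, the muscle partner of Cox7a2, was not analysed here.

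The ATP synthase gave the single gene of the set that was higher with NTA without overlap. Atp5if1 is the inhibitor protein that binds the F1 head and stops the enzyme from running backwards and splitting ATP. It was at 4.18, 4.17 and 4.09 on the NTA arrays, against 3.72, 3.68 and 3.80 on the vehicle arrays. The replicates lay close together and the groups were well apart, at 4.14 ± 0.05 with NTA and 3.74 ± 0.06 with vehicle (SD, n = 3 each). The NTA level was 1.33 times that with vehicle (log2 difference 0.41, SE 0.10, 95% interval 0.17 to 0.64), yet this did not pass over all features (limma, Benjamini-Hochberg adjusted p = 0.50). It stayed between 0.38 and 0.44 when any 1 array was left out, and was 0.25 with normexp background correction. Only 1 probe was matched to Atp5if1, so no other probe could be compared.

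The 14 structural subunits of the ATP synthase were below 0 in 14 of 14, with a median of −0.13. The 3 measured accessory subunits of the membrane part had a median of −0.23, and in 3 of 3 the groups did not overlap, against 8.03% of all features. In Atp5mk they were barely apart, at 5.71 on NTA replicate 1 and 5.74 on vehicle replicate 1. Over the ATP synthase, 7 of 15 genes were lower without overlap, with Atp5mc1, Atp5pf and Atp5f1c among them. Groups by part of the enzyme, like the core and accessory groups of complex I, were not among the planned summaries. Of the membrane accessory subunits, Atp5me, the subunit e that helps the enzyme to form dimers, was at 7.61, 7.66 and 7.43 with NTA, against 7.75, 7.86 and 7.85 with vehicle (−0.25, SE 0.11; limma, Benjamini-Hochberg adjusted p = 0.68). Of the genes for the proton-carrying c ring, which encode the same mature protein, Atp5mc1 was at 6.66, 6.58 and 6.67 with NTA, against 6.94, 6.78 and 6.86 with vehicle (−0.22, SE 0.10). Its second probe gave −0.24, while Atp5mc2 was at −0.13 (SE 0.11) with overlapping groups, and Atp5mc3 was not analysed here. The 5 genes of the F1 head and central stalk had a median of −0.085. The catalytic subunit Atp5f1b was at −0.085 (SE 0.12), with values from −0.18 without NTA replicate 1 to −0.027 without NTA replicate 2, and at 0.018 with normexp. Its partner Atp5f1a, the ATP synthase gene with the highest mean level, was at −0.069 (SE 0.10), at −0.12 when vehicle replicate 1 was left out and at −0.018 when vehicle replicate 3 was. The peripheral stalk had a median of −0.11 over 4 genes.

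**Figure D3:**
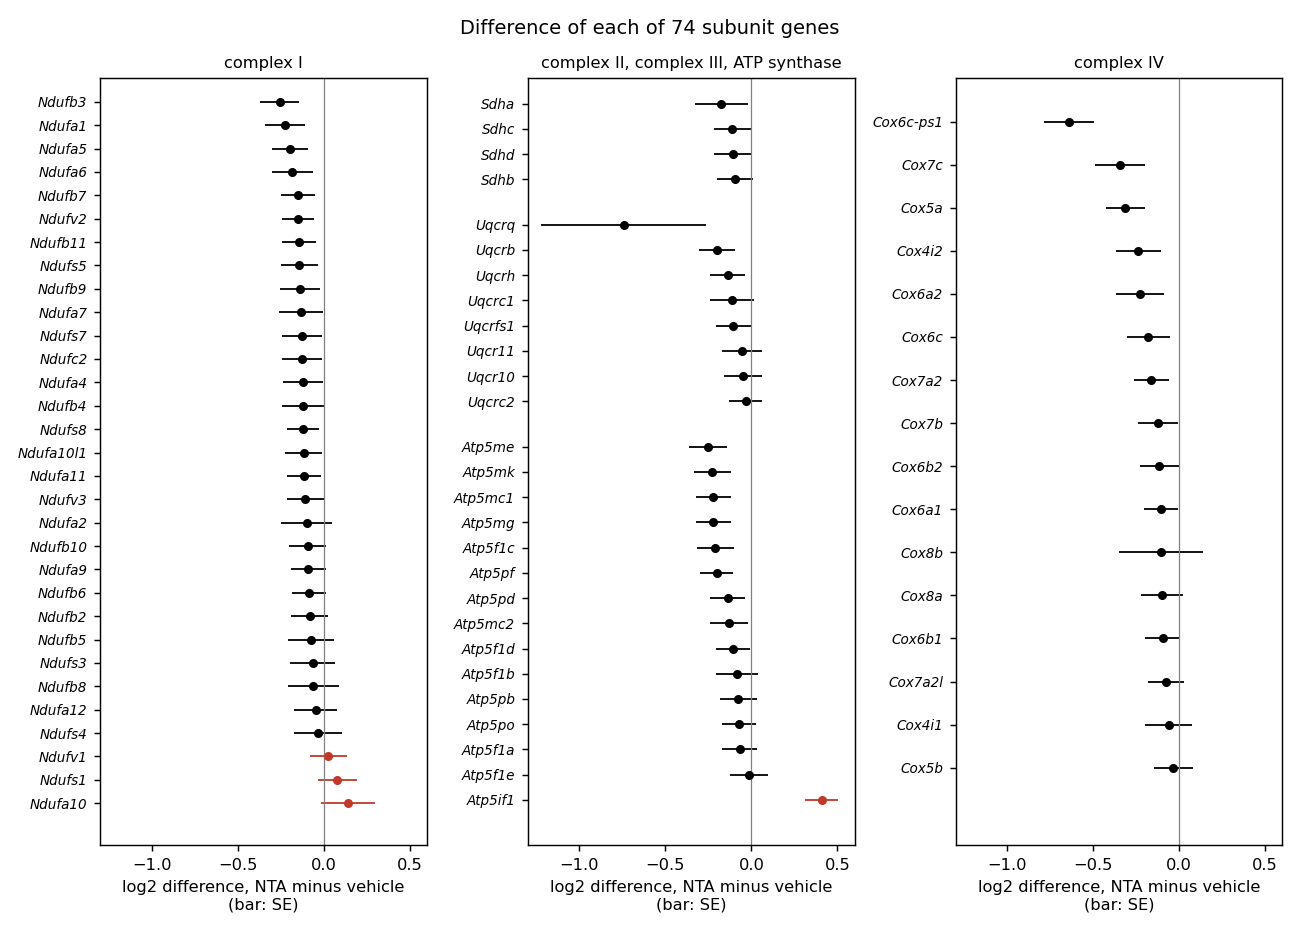
Log2 difference (NTA minus vehicle) of 74 measured subunit genes with the limma standard error, by complex, with differences above 0 in red. Of those drawn, 70 lie below 0; Atp5if1 is the highest at 0.41, and Uqcrq (−0.74) has the longest error bar, 0.48.

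**Figure D4:**
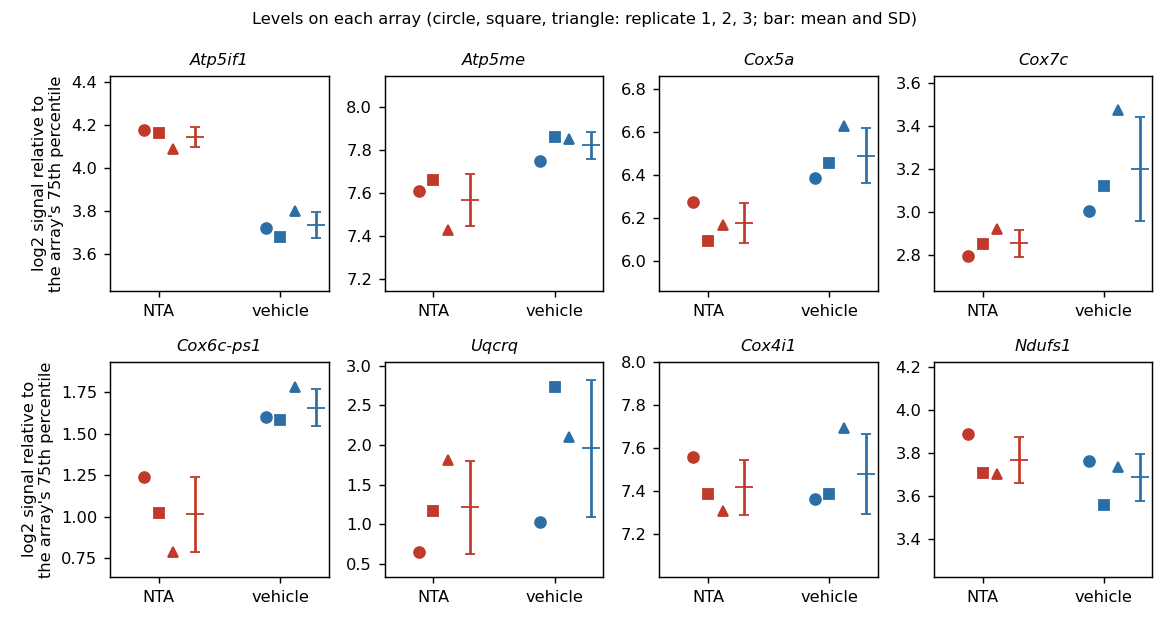
Level (log2 signal over the 75th percentile) on each NTA array (red) and vehicle array (blue) for 8 genes, with group mean and SD. Groups are apart in Atp5if1, Atp5me, Cox5a, Cox7c and Cox6c-ps1, which have the smallest p of the set, and overlap in Uqcrq, Cox4i1 and Ndufs1. Over all 75 subunit genes, 21 were lower and 1 was higher without overlap, against 8.03% and 5.57% of all features.

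A second probe or more passed the filter in 37 of the 75 genes, giving 52 further probes. Of these, 45 had the sign of the gene's brightest probe, and the gap to it had a median of 0.045. It was over 0.2 for 4 probes, among them dimmer probes of Cox6a2 (−0.84 against −0.23), Cox6b2 (0.35 against −0.12) and Ndufc2 (−0.59 against −0.13). Many of these genes have processed copies in the rat genome: 35 of the 76 have at least 1 named pseudogene in the RefSeq table, and whether a probe also reads such copies was not tested.

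Of 6 other lists of mitochondrial genes, 0 genes passed limma over all features, and the list medians lay between −0.10 and 0.037. Of the 38 assembly factors, which build the complexes without staying in them, 19 were below 0 and the median was −0.0015 (0.0065 with quantile normalization). At an unadjusted p under 0.05 there was 1 lower, the complex IV assembly factor Coa3 at −0.29 (SE 0.10), and 1 higher, the complex II assembly factor Sdhaf1 at 0.30 (SE 0.10). Those counts are no more than the shares of all features given above, 3.91% lower and 3.66% higher. The 18 genes of electron carriers and coenzyme Q synthesis had a median of −0.060, with 10 below 0. In that list the smallest p belonged to Etfb and Etfa, the subunits of the flavoprotein that feeds electrons from fatty acid oxidation, at −0.21 (SE 0.10) and −0.22 (SE 0.13). The tricarboxylic acid cycle had a median of −0.045 (0.0013 with quantile normalization) with 12 of 17 below 0. At an unadjusted p under 0.05, 1 of the 17 was lower, against 3.91% of all features, the malate dehydrogenase Mdh2 at −0.38 (SE 0.11). Dld, a subunit shared by the keto acid dehydrogenases, was at −0.34 (SE 0.15).

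The regulators of mitochondrial biogenesis, the factors that switch on nuclear genes for the organelle or copy its DNA, had a median of 0.0094 (−0.010 with normexp) with 8 of 17 below 0. Tfam, the packaging factor of mitochondrial DNA, was at 3.40, 3.42 and 3.50 with NTA, against 3.65, 3.53 and 3.75 with vehicle (−0.20, SE 0.11), and Lrpprc, which stabilises mitochondrial messenger RNA, at 0.15 (SE 0.092). In both, which were picked for their small p, the groups did not overlap. Over that list, 2 of 17 genes were lower and 1 was higher without overlap, against 8.03% and 5.57% of all features. The genes of iron-sulfur cluster assembly had a median of 0.037 with 7 of 16 below 0, and the smallest p there belonged to Glrx5 at 0.34 (SE 0.15) and the iron importer Slc25a28 at 0.23 (SE 0.11). Outer membrane, import and carrier proteins had a median of −0.10 with 16 of 19 below 0. In this list 1 of 19 genes was higher at an unadjusted p under 0.05, against 3.66% of all features. That gene was the ADP/ATP carrier Slc25a4, at 1.09, 1.20 and 1.13 with NTA, against 0.67, 0.64 and 0.69 with vehicle (0.47, SE 0.095; limma, Benjamini-Hochberg adjusted p = 0.45). The import channel Timm23 was at −0.21 (SE 0.10). No test of the difference between these lists and the subunit genes was made.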

How the data were processed

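Liver RNA of 6 rats was measured on Agilent arrays of design 035170 (build rn4, per the file headers). The submitters' processing notes name Feature Extraction 10.7, and the file headers give 10.7.1.1. The deposited scanner files give for each spot a background-subtracted processed intensity on a linear scale, with median spot and background intensities and 0 or 1 flags, per the file headers. In the authors' series table each deposited value is a linear ratio, namely processed signal divided by the 75th percentile: this held for 100% of probes to within 0.0001 plus 0.2%, so its scale, direction and lack of centring are known and it is no independent check. Its column medians were 0.0960, 0.1000 and 0.0969 for the NTA arrays and 0.0980, 0.0977 and 0.0987 for the vehicle arrays.

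From these, log2(gProcessedSignal) minus log2 of the array's 75th percentile over 61657 non-control probes was computed. Spots flagged as non-uniform or as population outliers were set to missing. A probe was kept if either group had it well above background on each of its 3 arrays, and the brightest probe stood for a gene. Names came from unversioned accessions in the RefSeq table of GRCr8: 27460 probes had 1 symbol and 34197 none, kept as features under their IDs. NTA was compared with vehicle with limma 3.58.1 (R 4.3.3; lmFit, eBayes, two-sided) over 30353 features, with Benjamini-Hochberg adjustment over all of them and a threshold of 0.05; intervals are 95% on 6.54 degrees of freedom. With 3 against 3 an exact permutation test cannot go below 0.1. Precision is limited by the number of arrays. The fit was tested on simulated data.

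The members and gene lists were chosen with earlier results of these data known, so their direction is not independent evidence. Genes named are those past the threshold, up to 3 per complex (2 for Sdh) with the smallest p, the brightest of each complex, a set list of subunits, and the 2 with the smallest p in each pathway list; others named were chosen after their values were seen. Alternatives covered background correction, scaling, probe choice, filters, the variance model, slide, scan day, replicate number, the series table and each array left out. Scanner files without a mean spot signal led normexp (offset 50) to use the median spot signal. Each of the 3 slides held arrays of 1 group, so a fit with slide as a random block cannot separate a slide effect from the treatment. 1 gene of the set list is not reported here.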

Additional observations from a re-analysis of the deposited data

How the results depend on the processing

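No subunit gene was called under any alternative run. With 1 array left out, the subunit median lay between −0.161 and −0.0774. The number of features called was 0 with the replicate block, against 9, and 1 to 8 with 1 array left out. Deviations of same-numbered arrays from their group means had correlations of 0.174, −0.00643 and −0.0747. With 3 arrays per group these cannot settle whether the replicate numbers pair the rats. Subunit genes at an unadjusted p under 0.05, 3 as reported, were 6 when a gene's probes were averaged (8%, against 7.52% of all features), 18 with normexp (24.0%, against 10.8%), 11 with the trend and robust options (14.7%, against 7.36%) and 2 to 9 with 1 array left out. With normexp the sign turned for Atp5f1b (0.0180), Cox5b (0.0243), Sdhd (0.0862), Uqcr10 (0.0525) and the median of the biogenesis regulators (−0.0101). With quantile normalization it turned for Cox5b (0.0129), the assembly factors (0.00648) and the tricarboxylic acid cycle (0.00134), with median centring for the assembly factors (0.00510), and with the mean of probes for the biogenesis regulators (−0.00207). With scan day as a block or day 1 alone, Cox4i1 was at 0.0445 and the muscle and brown fat markers at 0.0616. With 1 array left out, signs turned within these ranges: Cox4i1 −0.133 to 0.0445, Cox5b −0.0840 to 0.0446, Ndufv1 −0.0265 to 0.0774, Uqcr10 −0.103 to 0.0149, biliary markers −0.0150 to 0.337, iron-sulfur assembly −0.0277 to 0.0662, biogenesis regulators −0.0761 to 0.0338, assembly factors −0.0382 to 0.0209, and muscle and brown fat markers −0.588 to 0.0616. The cause was not tested.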
